A study of Mus musculus with 10 samples.

Results

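The mitochondrial ribosomal protein genes were followed in the livers of *db/db* mice given either of 2 viral vectors. The set was taken by symbol, as every gene named *Mrpl* or *Mrps* followed by a digit, and holds 77 of the 15126 genes listed. Of these, 48 carry an *Mrpl* symbol and 29 an *Mrps* symbol. The symbol and the place of the protein do not always match. *Mrps30* and *Mrps18a* were named for the small subunit, but their proteins sit in the large subunit. *Mrps36* encodes a component of the 2-oxoglutarate dehydrogenase complex rather than a ribosomal protein. By place, the set holds 50 large-subunit genes, 26 small-subunit genes and *Mrps36*.

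The mitochondrial ribosome, or mitoribosome, translates the few proteins that the mitochondrial genome encodes, all of them subunits of the respiratory chain and ATP synthase. Its RNAs come from mitochondrial DNA, whereas its proteins are encoded in the nucleus, made in the cytosol and imported. The small subunit decodes the mRNA and the large subunit forms the peptide bonds. Many of these proteins descend from those of the bacterial ancestor, and others are found only in mitochondria. Hepatocytes are rich in mitochondria and depend on them for fatty acid oxidation, ketogenesis and urea synthesis.

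Polyadenylated RNA was sequenced from 5 *db/db* AAV8-Control livers and 5 *db/db* livers given another AAV8 vector (test-vector livers), as single reads of 50 bases. The mice lacked a functional leptin receptor, were 10 weeks old and had been injected with an adeno-associated virus of serotype 8, which carried eGFP in AAV8-Control and a different insert in the test-vector group. The vector had been given 5 weeks before the livers were taken, and the promoter that drove it is not given in the sources used here. Because every mouse carried the *db* mutation and a vector, the comparison bears on obese diabetic liver only and holds no uninfected liver. The deposited labels give the tissue as liver but the cell type as primary hepatocytes, with culture and adenovirus protocols, while the study's methods describe whole livers of infected mice. The levels used here are CPM, a gene's reads scaled to the library's total of reads counted on genes.

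The libraries held 19499795 to 35498596 reads counted on genes, so that 1 read was worth 0.0282 to 0.0513 CPM. All 8 hepatocyte markers were present, at a summed 98274 to 134427 CPM in AAV8-Control and 107718 to 124740 CPM in the test-vector group. Markers of other cells were also present, with summed levels of 134 to 270 and 136 to 230 CPM for 8 Kupffer cell markers, 98.1 to 194 and 123 to 172 CPM for 6 endothelial markers, 241 to 327 and 220 to 314 CPM for 7 stellate markers, and 33.5 to 53.9 and 32.9 to 52.1 CPM for 5 cholangiocyte markers. The 5 lymphocyte and 2 neutrophil markers were each under 1 CPM, and 5 erythroid markers summed to 262 to 327 and 195 to 484 CPM. No tested marker passed an adjusted p of 0.05 in limma, where 2 of the 8 hepatocyte markers and none of the other tested markers had an unadjusted p under 0.05. In mean, 5 of the 8 hepatocyte markers and 1 of the 8 Kupffer cell markers were higher in the test-vector group. The part of cell composition in the results below was not tested. In such whole-tissue RNA, fewer cells of a type and less RNA per cell cannot be told apart.

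Mitoribosomal transcripts were a small and even share of the liver's RNA. Together the 77 genes took 0.182% to 0.216% of reads, which was 41600 to 72848 reads per library. The summed level was 2164, 2055, 2052, 1982 and 2073 CPM in AAV8-Control livers 1 to 5, and 1945, 2096, 2049, 1921 and 1824 CPM in test-vector livers 1 to 5. The groups overlapped, since test-vector livers 2 and 3 lay within the AAV8-Control range and the other 3 lay below it. Genes were tested where their mean reached 1 CPM over the 10 livers, which 74 members did. They had 34 to 2608 reads per library, and the median member had a median of 560 reads.

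The 3 members below that level are named after their values were seen. *Mrpl23* had 9 to 22 reads per library. *Mrps23*, of the small subunit, had 0 to 5 reads, and *Mrpl53*, of the large subunit, had 0 to 2 reads. In the libraries where such a gene had no read, a count of 0 allows up to 0.109 to 0.154 CPM depending on depth, which covers counting error only. Of the exonic bases of *Mrpl53*, 88.0% are shared with other annotated genes, and the authors counted only reads that fell on a single gene. *Mrps23* shares none.

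Per kilobase of annotated exon, the levels of the tested members spanned 45.5-fold. *Mrpl34*, a small protein of the large subunit with a bacterial counterpart, had the highest level at 63.1 CPM per kb. *Mrpl12*, part of the stalk that contacts translation factors and also reported to bind the mitochondrial RNA polymerase, followed at 44.5 CPM per kb. *Mrps21*, of the small subunit, was at 34.9 CPM per kb. The lowest were *Mrpl48* at 1.38, *Mrps33* at 1.53 and *Mrps36* at 1.60 CPM per kb. Reads on *Mrps33* and *Mrps36* are uncertain, because 21.0% and 36.2% of the 50-base windows of their transcripts also occur in another gene's transcripts, for *Mrps36* in the pseudogene *Mrps36-ps1*.

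Promoter sequences were examined because nuclear genes for mitochondrial proteins are known targets of the factors NRF-1, GABP of the ETS family and YY1. RefSeq promoters (GRCm38.p6, 250 bases before to 50 after the start) were matched for 68 of the 77 members, giving 74 promoters. Letters were searched on either strand. The NRF-1 core GCGCANGCG was in 21.6% of the members' promoters, in 13.3% of those of tested genes and in 6.25% of all promoters. The ETS core CCGGAAG was in 33.8%, 17.3% and 8.86%, and the YY1 core AANATGGC in 28.4%, 8.45% and 6.05%. At least 1 of these 3 was in 63.5% of the members' promoters, 33.2% of those of tested genes and 18.6% of all. The TATA letters TATAAA were in 6.76%, 7.50% and 13.6%. None of these letters contains another of them.

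Bases -120 to -31 before the start are shown for 3 members, to let these letters be seen in place in promoters free of annotated exons there. *Mrpl12* and *Mrpl34* have the highest levels per length among large-subunit genes, and *Mrpl16* is among the members with the lowest unadjusted p. Capitals mark the NRF-1 core in *Mrpl12* (chr11:120484517-120484606, forward strand), the ETS core in *Mrpl34* (chr8:71464806-71464895, forward strand) and the TATA letters in *Mrpl16* (chr19:11770295-11770384, forward strand).
Mrpl12: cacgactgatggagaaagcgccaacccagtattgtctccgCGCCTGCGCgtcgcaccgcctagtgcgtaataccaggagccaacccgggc
Mrpl34: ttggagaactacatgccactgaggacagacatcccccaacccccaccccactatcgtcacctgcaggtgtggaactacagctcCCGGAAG
Mrpl16: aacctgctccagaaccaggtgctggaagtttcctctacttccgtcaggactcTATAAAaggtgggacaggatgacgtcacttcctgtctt
The median ratio of observed to expected CpG was 0.82 in the members' promoters, 0.75 in those of tested genes and 0.38 in all promoters. A divergent protein-coding neighbour started within 1000 bases of 18 of the 77 members (23.4%), against 10.5% of tested genes. Among them are *Mrps12* beside *Sars2*, the mitochondrial seryl-tRNA synthetase, 172 bases apart, and *Mrpl49* beside *Fau*, which encodes a cytosolic ribosomal protein, 59 bases apart.

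With the test vector, most mitoribosomal transcripts had a slightly lower mean level, and none passed the test after adjustment. Of the 74 tested members, 64 were lower in mean in the test-vector group than in AAV8-Control livers, while 44.1% of all 11027 tested genes were lower. The median log2 fold change was -0.076 on the log2(CPM + 1) scale, with the middle 50% of members between -0.11 and -0.027. For all tested genes the median was 0.019. The members ranged from -0.20 in *Mrps33* to 0.082 in *Mrpl38*. The median member stayed below 0 in each of 21 alternative analyses, from -0.10 to -0.054, and 53 of the 64 were lower in all of them. Of the 10 members with a higher mean, 4 were higher in all 21.

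No member had an adjusted p under 0.05 in limma with Benjamini-Hochberg adjustment over all 11027 genes, where 2 genes in all (0.0181%) did. The lowest adjusted p of a member was 0.617. At an unadjusted p under 0.05 there were 3 members, all lower, against 2.97% of tested genes lower and 4.99% higher. No member was higher at that level. edgeR's quasi-likelihood test and DESeq2's Wald test on the reads also gave no member at an adjusted p under 0.05, and each gave 6 lower at the unadjusted level, where 3.95% of all genes were lower in either fit. Standard errors ran from 0.056 to 0.11. All 74 confidence intervals (95%, limma) lay within a 1.5-fold change in either direction, 45 lay within 1.2-fold, and 71 included 0.

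**Figure D1:**
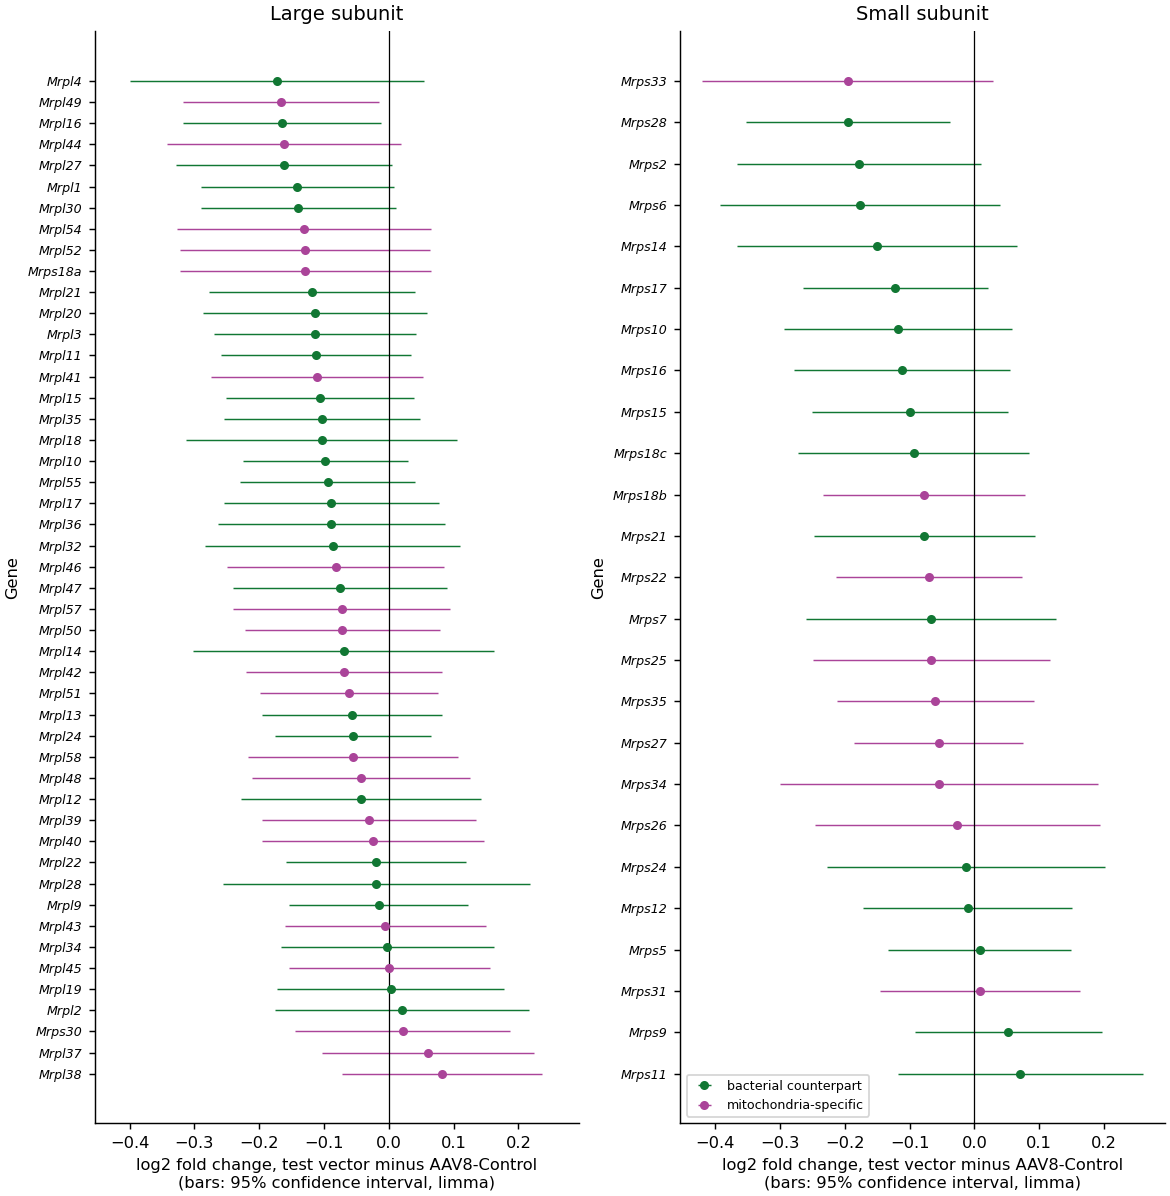
Log2 fold change of each tested mitoribosomal gene, test vector minus AAV8-Control on log2(CPM + 1), with its 95% confidence interval from limma (n = 5 livers per group), for the 48 large-subunit and 25 small-subunit genes, coloured by whether the protein has a bacterial counterpart. Points lie left of 0 for 42 of 48 and 21 of 25 genes, and 3 intervals in all lie wholly below 0, those of *Mrps28*, *Mrpl49* and *Mrpl16*. *Mrps18a* and *Mrps18b* are coloured as mitochondria-specific.

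The large and the small subunit gave similar values. In the large subunit 42 of 48 genes were lower in mean, with a median log2 fold change of -0.079, and in the small subunit 21 of 25, with a median of -0.070. Genes with a bacterial counterpart had a median of -0.092 in the large subunit (26 of 28 lower) and -0.097 in the small (13 of 16 lower). Mitochondria-specific genes had -0.065 in the large (16 of 20 lower) and -0.061 in the small (8 of 9 lower). *Mrps18a* in the large and *Mrps18b* in the small were counted there, although they derive from the same bacterial gene as *Mrps18c*. *Mrps36*, outside the ribosome, was at 2.14 ± 0.322 CPM in controls and 1.93 ± 0.182 CPM in test-vector livers (SD, n = 5 in each, and pairs of values below keep this order of groups), a log2 fold change of -0.10. It was at -0.051 without AAV8-Control liver 2 and at -0.22 with voom. The difference between these classes was not tested.

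*Mrps28*, a small-subunit protein with a bacterial counterpart, had the lowest unadjusted p. The gene, ENSMUSG00000040269, occupies chr3:8802146-8923918 of GRCm38, reverse strand. It was at 20.9, 20.9, 21.6, 18.4 and 19.2 CPM in AAV8-Control livers 1 to 5, and at 18.2, 18.2, 18.6, 16.9 and 15.7 CPM in test-vector livers 1 to 5. Only test-vector liver 3 lay above the lowest control, liver 4, so the groups overlapped by a single pair. The log2 fold change was -0.20 (standard error 0.073, 95% interval -0.35 to -0.038, limma unadjusted p = 0.0191, adjusted p = 0.617). Its unadjusted p was under 0.05 in 20 of the 21 alternatives.

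*Mrpl49*, a mitochondria-specific protein of the large subunit, is encoded at chr19:6053622-6057785, reverse strand (ENSMUSG00000007338). AAV8-Control livers 1 to 5 had 31.6, 33.8, 31.0, 34.9 and 36.9 CPM, and test-vector livers 1 to 5 had 27.6, 32.5, 31.0, 29.0 and 29.2 CPM. The control values were the higher in general, with test-vector liver 2 inside their range and liver 3 at its lower edge. The log2 fold change was -0.17 (standard error 0.070, limma unadjusted p = 0.0340), and 14 of 21 alternatives kept an unadjusted p under 0.05. With the replicate number as a block the unadjusted p was 0.0523. Its divergent neighbour *Fau* had a log2 fold change of 0.017.

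*Mrpl16*, a large-subunit protein related to a bacterial protein near the peptidyl transferase centre, is encoded at chr19:11770391-11774960, forward strand (ENSMUSG00000024683). Its levels were 43.9, 44.7, 46.2, 40.2 and 41.6 CPM in AAV8-Control livers 1 to 5, and 39.1, 43.8, 38.1, 36.9 and 35.1 CPM in test-vector livers 1 to 5. Test-vector liver 2 alone reached the control range. The log2 fold change was -0.16 (standard error 0.071, limma unadjusted p = 0.0369), with an unadjusted p under 0.05 in 15 of 21 alternatives.

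*Mrps17*, a small-subunit protein with a bacterial counterpart, was the only member whose groups did not overlap, which held for 0.435% of tested genes in this direction. It occupies chr5:129715497-129722556, forward strand (ENSMUSG00000034211). The AAV8-Control livers were close together, at 36.3, 37.1, 36.9, 36.4 and 37.2 CPM. The test-vector livers were at 36.2, 35.7, 34.9, 32.7 and 29.5 CPM in livers 1 to 5. The gap between the groups was narrow, from 36.17 CPM in the highest test-vector liver to 36.31 CPM in the lowest control. The log2 fold change was -0.12 (standard error 0.066, limma unadjusted p = 0.0870), and without test-vector liver 5 it was -0.075.

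Other members with a low unadjusted p were also lower in mean without passing 0.05 in the limma fit reported here. *Mrpl27*, of the large subunit, was at 15.6 ± 1.10 and 13.9 ± 1.11 CPM (log2 fold change -0.16), with 39.0% of its 50-base windows shared with another gene's transcripts. *Mrpl1*, of the large subunit, was at 27.1 ± 1.58 and 24.5 ± 1.74 CPM (-0.14). *Mrps2*, of the small subunit, was at 46.6 ± 4.24 and 41.1 ± 4.34 CPM (-0.18). In these 3 the ranges of the groups overlapped, and the limma unadjusted p was 0.0556, 0.0614 and 0.0621. The unadjusted p was under 0.05 in 10 of the 21 alternatives for *Mrpl27*, 2 for *Mrpl1* and 7 for *Mrps2*.

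Of the 10 members with a higher mean, *Mrpl38* had the largest value and the lowest unadjusted p. *Mrpl38*, a mitochondria-specific protein of the large subunit, had 75.0, 59.6, 62.1, 62.5 and 70.5 CPM in AAV8-Control livers 1 to 5 and 71.0, 70.0, 72.2, 65.7 and 69.3 CPM in test-vector livers 1 to 5. The test-vector values all lay inside the wider control range, and the log2 fold change was 0.082 (standard error 0.071, limma unadjusted p = 0.270). *Mrps11*, a small-subunit protein with a bacterial counterpart, had a log2 fold change of 0.071. *Mrpl37*, of the large subunit, had 0.061 and *Mrps9*, of the small subunit, 0.052. These 4 had the same sign in all 21 alternatives, but their sizes rested on single livers. *Mrpl38* was at 0.047 without AAV8-Control liver 2, *Mrps9* at 0.027 without AAV8-Control liver 1, and *Mrps11* at 0.024 and *Mrpl37* at 0.016 without test-vector liver 3. With voom, *Mrps9* was at 0.0098. *Mrps11* and *Mrpl46* lie head to head on chromosome 7 with overlapping first exons, so reads there were not assigned to either gene.

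**Figure D2:**
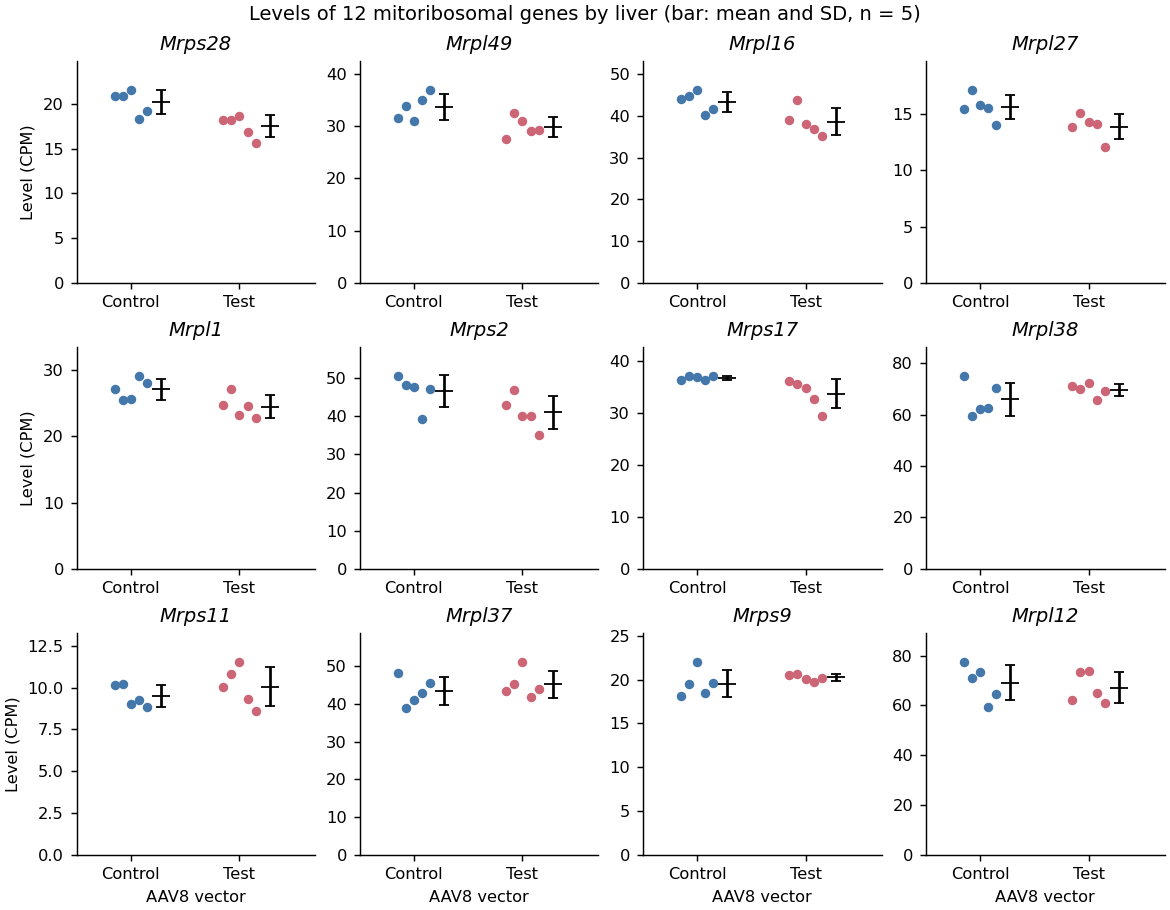
Level in CPM of 12 mitoribosomal genes in each of the 5 AAV8-Control and 5 test-vector livers, 1 point per liver in order of liver number, with the mean and SD of each group beside the points. *Mrps17* is the gene whose groups do not overlap (36.31 CPM in the lowest control, 36.17 CPM in the highest test-vector liver).

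The stalk proteins recruit translation factors to the large subunit, and the mRNA of each gene below was read separately. *Mrpl12* averaged 69.2 ± 7.16 CPM in controls and 67.1 ± 6.17 CPM with the test vector, a log2 fold change of -0.042. *Mrpl11*, of the stalk base, was at 23.2 ± 1.32 and 21.4 ± 1.36 CPM (-0.11), and *Mrpl10*, which anchors *Mrpl12* to the ribosome, was at 47.7 ± 2.05 and 44.5 ± 2.18 CPM (-0.098). In each of the 3 the groups overlapped, and the limma unadjusted p was 0.628, 0.119 and 0.122. With each liver left out, *Mrpl12* ran from -0.094 (without AAV8-Control liver 4) to -0.00074 (without AAV8-Control liver 1).

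The *Mrps18* genes derive from 1 bacterial gene, and their products occupy different places. *Mrps18c*, the small-subunit protein with the bacterial counterpart, was at 12.0 ± 1.08 and 11.2 ± 0.950 CPM (log2 fold change -0.094). *Mrps18b*, also of the small subunit, was at 23.5 ± 1.69 and 22.2 ± 1.48 CPM (-0.078). *Mrps18a*, of the large subunit, was at 25.9 ± 2.87 and 23.5 ± 2.19 CPM (-0.13). *Mrps30*, the other large-subunit protein with a small-subunit symbol, was at 12.2 ± 0.730 and 12.4 ± 1.06 CPM (0.021), and this sign turned when test-vector liver 2 was left out. None of the 4 had an unadjusted p under 0.05. The value of *Mrps18a* was -0.080 without AAV8-Control liver 1, that of *Mrps18b* -0.043 without test-vector liver 4, and that of *Mrps18c* -0.056 without AAV8-Control liver 4. Reads on *Mrps18b* and *Mrps18c* are uncertain, as 63.7% and 23.2% of their 50-base windows also occur in transcripts of another gene.

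The members with the extreme levels per length were spread over the range of fold changes. *Mrpl34* was at 38.3 ± 3.45 and 38.2 ± 2.71 CPM (log2 fold change -0.0022, with a sign that changed in 7 of 21 alternatives). *Mrps21* was at 26.5 ± 2.71 and 25.0 ± 1.63 CPM (-0.078). *Mrpl48* was at 11.5 ± 0.882 and 11.1 ± 0.862 CPM (-0.043). Without AAV8-Control liver 5 *Mrps21* was at -0.029, and without AAV8-Control liver 3 *Mrpl48* was at -0.010. *Mrps33*, with only 2.78 ± 0.287 and 2.31 ± 0.381 CPM, had the most negative value of the 74 at -0.20 (95% interval -0.42 to 0.028).

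Members tended to be high or low together in a liver. Of the 74, 62 were above their mean over the 10 livers in AAV8-Control liver 1 and 61 in test-vector liver 2, but only 6 in test-vector liver 5. Of all tested genes, 64.9%, 48.1% and 50.8% were above their mean in these livers. The median deviation of the 74 members from each gene's mean over the 10 livers was 0.080, 0.037, 0.024, -0.024 and 0.046 (log2) in AAV8-Control livers 1 to 5. In test-vector livers 1 to 5 it was -0.050, 0.057, 0.010, -0.077 and -0.12. Test-vector liver 2 lay above 4 of the 5 controls, and test-vector livers 1, 4 and 5 below all of them. Test-vector liver 5 had the lowest level of the 10 livers for 36 of the 74 members and test-vector liver 4 for 14, which held for 15.7% and 8.83% of all tested genes. AAV8-Control liver 1 had the highest level for 20 members, and for 16.7% of all tested genes. For all tested genes the medians of AAV8-Control livers 1 to 5 were 0.058, -0.033, -0.020, -0.048 and -0.0079, and those of test-vector livers 1 to 5 were -0.071, -0.0055, 0.085, 0.027 and 0.0042.

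Leaving test-vector liver 5 out gave 59 members lower and a median log2 fold change of -0.054. Without test-vector liver 2 there were 67 lower and a median of -0.10. The number of members lower at an unadjusted p under 0.05 was 1 without AAV8-Control liver 2 or 3 or test-vector liver 4 or 5, and 8 without test-vector liver 2. The share of all tested genes lower at that level moved likewise, at 1.94%, 2.46%, 2.10% and 1.60% in those 4 fits and 4.58% without test-vector liver 2. The median SD of a member between livers of a group was 0.11 on the log2 scale, against 0.058 from counting error alone at the members' depth.

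**Figure D3:**
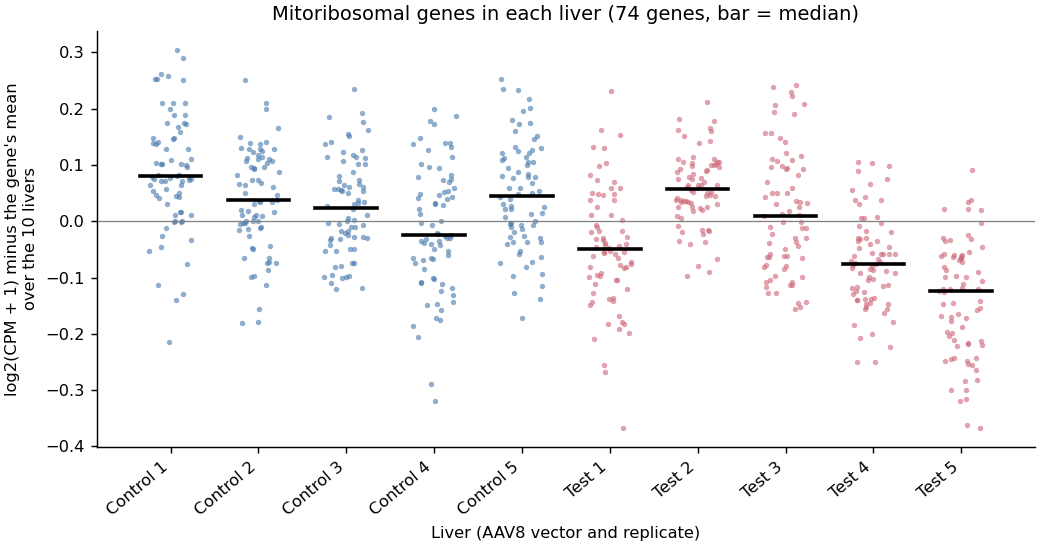
Deviation of each of the 74 mitoribosomal genes from its own mean over the 10 livers, on log2(CPM + 1), 1 point per gene and liver, with the median as a bar. The medians of the AAV8-Control livers run from -0.024 to 0.080 and those of the test-vector livers from -0.12 to 0.057.

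Transcript length moved with the fold change across all genes. In the shortest quartile of longest annotated transcripts (392 to 2259 bases), the median log2 fold change of all tested genes was -0.048 and 67.1% were lower. In the next quartiles the medians were 0.00061, 0.034 and 0.097, and 49.8%, 38.1% and 21.4% of genes were lower. Mitoribosomal genes are short, with a median of 1867 bases against 3445 for all tested genes, and 41 of the 74 fell in the shortest quartile. Their medians by quartile were -0.082, -0.071, -0.082 and -0.066, for 41, 18, 10 and 5 genes. By exonic length the members' medians were -0.078, -0.075, -0.032 and -0.075, for 43, 17, 8 and 6 genes. The part of length in the members' values was not tested. The median GC content of the members and of all tested genes was 49.6% in each case.

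**Figure D4:**
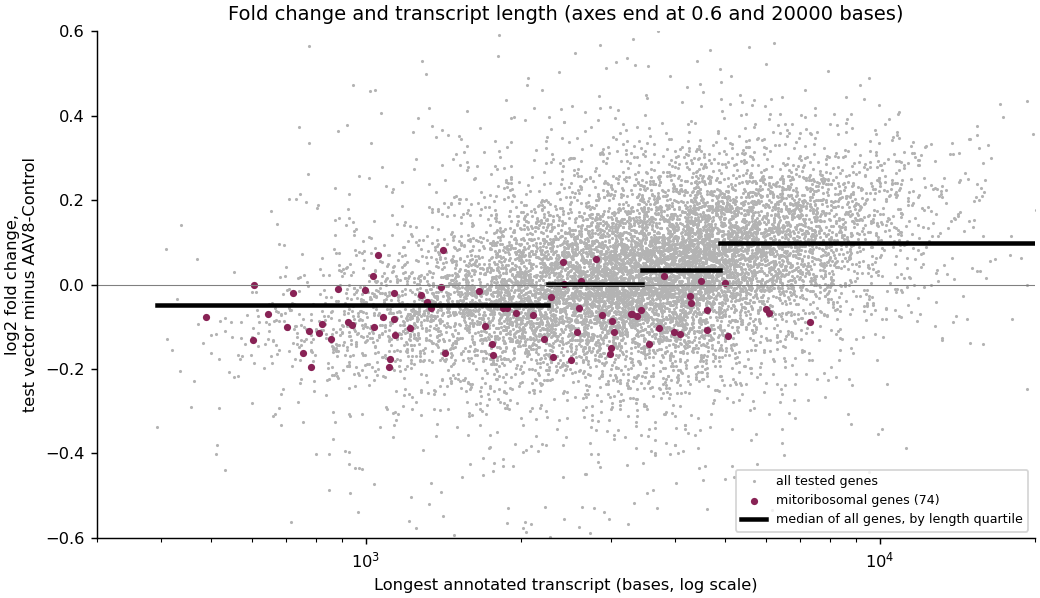
Log2 fold change, test vector minus AAV8-Control, against the longest annotated transcript in bases (log axis) for all tested genes (grey) and the 74 mitoribosomal genes (coloured), with the median of all genes in each length quartile as a black bar. The bars climb from -0.048 to 0.097, whereas the mitoribosomal medians stay between -0.082 and -0.066 over the quartiles.

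Some members share sequence with other genes. Of the 77 members, 32 share exonic bases with another annotated gene and 12 have at least 20% of their 50-base windows in another gene's transcripts. The library preparation did not mark strand, so reads of antisense neighbours cannot be separated. Of the 24 tested members that share neither, 19 were lower in mean, with a median log2 fold change of -0.080. Among the divergent neighbours, 8 of 17 tested were lower, with a median of 0.017, against 14 of 17 and -0.072 for the members of the same pairs. Of these neighbours, 3 had an unadjusted p under 0.05, all lower, and were named after their values were seen. They were *Psma2*, a proteasome subunit beside *Mrpl32*, *Pnpla7*, a lysophospholipase beside *Mrpl41*, and *Eme2*, a DNA repair nuclease subunit beside *Mrps34*. Their limma adjusted p was 0.617 each. Of all tested genes, 44.1% were lower in mean, 2.97% were lower at an unadjusted p under 0.05 and 4.99% were higher at that level. Members with and without each promoter motif had similar medians, at -0.071 and -0.089 for NRF-1, -0.078 and -0.079 for ETS, and -0.069 and -0.080 for YY1. All 23 members with the ETS core were lower in mean, as were 34 of 42 without it.

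The other parts of the mitochondrial translation machinery were read from lists of known genes. Of all 11027 tested genes, 44.1% were lower in mean and 2.97% were lower at an unadjusted p under 0.05. Of 5 mitoribosomal genes without an *Mrp* symbol, 4 were lower in mean, with a median log2 fold change of -0.026. They include *Chchd1*, of the small subunit, at -0.075. Of 15 mitochondrial translation factors 10 were lower (median -0.062), and 1 had an unadjusted p under 0.05, the initiation factor *Mtif3*, at 20.9 ± 0.621 and 18.5 ± 1.23 CPM (-0.17, limma unadjusted p = 0.0204). Of 22 mitochondrial aminoacyl-tRNA synthetases and amidotransferase subunits 14 were lower (median -0.027), and *Sars2*, read as the neighbour of *Mrps12*, was at -0.070 beside -0.010 for *Mrps12*. Of 27 genes listed for mitoribosome assembly and rRNA modification 18 were lower (median -0.045). At an unadjusted p under 0.05 there was 1, the rRNA methyltransferase *Mrm3* at -0.22 (limma unadjusted p = 0.0418). The 27 include *Mdn1*, at 0.11, whose product acts in the assembly of cytosolic ribosomes.

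Of 13 tested genes for mitochondrial transcription or for nuclear regulators of mitochondrial genes, 9 were higher in mean, as were 6162 of all 11027 tested genes. The median log2 fold change of the 13 was 0.076. Of the factors whose letters were searched in the promoters, *Nrf1* was at 0.045, and *Gabpa* and *Gabpb1*, the subunits of GABP, were at 0.076 and -0.075. *Pprc1*, a coactivator of the PGC-1 family, was at 10.2 ± 0.470 and 12.8 ± 1.83 CPM without overlap (0.29, limma unadjusted p = 0.00813). *Esrra*, a nuclear receptor that drives mitochondrial genes, was at 25.9 ± 1.68 and 30.6 ± 2.77 CPM (0.23). *Yy1* was at 25.6 ± 1.94 and 31.5 ± 4.07 CPM (0.28), and *Ppargc1a*, which encodes PGC-1α, at 17.0 ± 4.27 and 23.2 ± 4.51 CPM (0.44). *Tefm*, an elongation factor of the mitochondrial RNA polymerase, was lower in mean at -0.21 (limma unadjusted p = 0.0481) and was named after its values were seen. At an unadjusted p under 0.05, *Pprc1*, *Esrra*, *Yy1* and *Ppargc1a* were higher and *Tefm* was lower, against 4.99% of all tested genes higher and 2.97% lower. As with *Pprc1*, 52 of the 11027 tested genes were higher without overlap. None of these had an adjusted p under 0.05.

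The products and partners of the mitoribosome are read here against all tested genes. Of these, 44.1% were lower in mean and 2.97% were lower at an unadjusted p under 0.05. The share lower in mean was 67.1% in the shortest quartile of transcript length and 21.4% in the longest. Transcript lengths of the lists below were not compared, and the part of length in their values was not tested. All 7 tested mitochondrially encoded genes were lower, with a median log2 fold change of -0.067 and none under an unadjusted p of 0.05. Their share of reads was 10.8 ± 0.752% in AAV8-Control and 10.4 ± 1.82% in test-vector livers (two-sided exact permutation test, p = 0.643). Across test-vector livers 1 to 5 their median deviation was 0.35, -0.078, -0.39, -0.13 and 0.13. Test-vector livers 1 and 5, which were low for the mitoribosomal genes, were high here, while liver 4 was low for both sets. In AAV8-Control livers 1 to 5 the median deviation of the mitochondrially encoded genes was -0.069, 0.031, -0.021, 0.064 and 0.17. Of 75 nuclear genes for oxidative phosphorylation subunits, taken by symbol, 71 were lower (median -0.10), 10 of them at an unadjusted p under 0.05. The 10 include *Cox7b* of cytochrome c oxidase and *Ndufa4*. Of 59 cytosolic ribosomal protein genes 48 were lower (median -0.087), and *Rps15a* and *Rpl22* reached that level. The 70 such genes listed summed to a mean of 2001 CPM in AAV8-Control, beside 2065 CPM for the 77 members. The authors counted only uniquely aligned reads on a single gene, so reads from sequence shared with other genes would be left out. That loss was not examined for this list. In test-vector liver 5 the median deviation was -0.22 for cytosolic ribosomal protein genes and -0.15 for the oxidative phosphorylation genes, beside -0.12 for the mitoribosomal genes. No gene of these lists passed an adjusted p of 0.05.

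**Figure D5:**
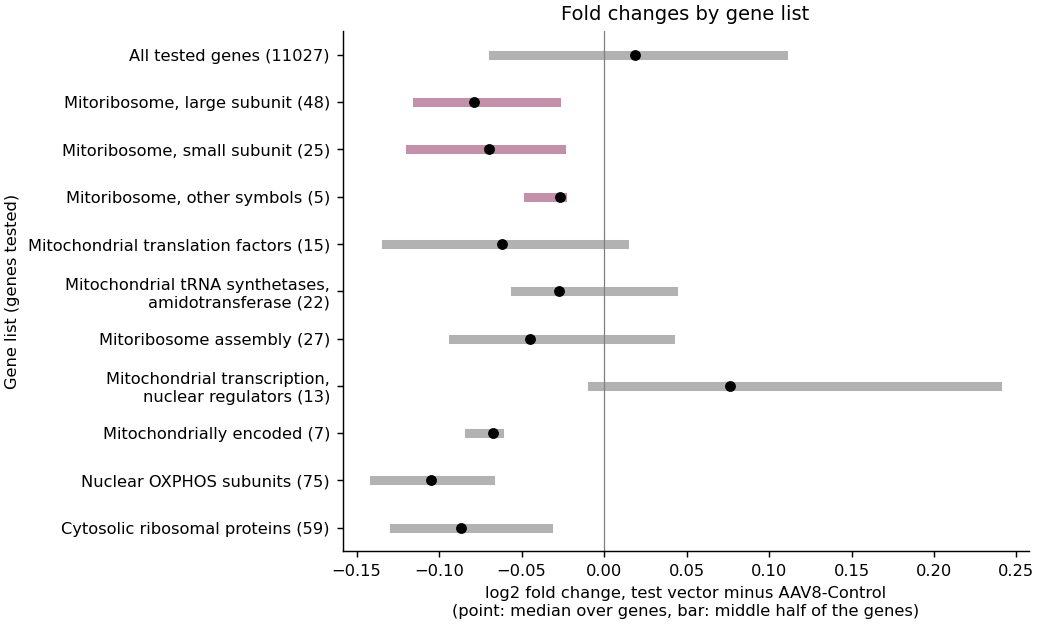
Log2 fold change, test vector minus AAV8-Control, by gene list, with the median over genes as a point, the middle 50% of genes as a bar and the number of genes tested in parentheses. The median is -0.079 for the large and -0.070 for the small subunit, 0.019 for all tested genes and 0.076 for mitochondrial transcription and its nuclear regulators. The mitoribosome assembly list includes *Mdn1*, of cytosolic ribosome assembly.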

How the data were processed

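Poly-A RNA-seq of *db/db* liver was used, with 5 libraries per AAV8 group and none left out. Per the labels, reads were aligned with STAR 2.0.4b to GRCm38.p2 and counted with featureCounts 1.4.5 of Subread. The authors deposited CPM values, scaled to all reads counted on genes, without further normalization. Dividing by the CPM of 1 read gave whole reads (within 0.02 reads) for 100% of values, with 19499795 to 35498596 reads per library, and this depth limits precision by counting error only.

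Genes averaging 1 CPM or more (11027) entered a limma 3.58.1 fit on log2(CPM + 1) (R 4.3.3) that used a trended prior, adjusted by Benjamini-Hochberg over all of them. This scale understates changes of genes near 1 CPM. The code was tested on simulated data. Members and lists were chosen with earlier results of these data known. Named members were the 6 lower and 4 higher with the smallest p, any whose groups did not overlap, the 3 highest and lowest per kb, those with misplaced symbols or *Mrps18* kin, and the stalk. Annotation was GENCODE M21 (GRCm38).

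Alternatives were a pseudocount of 0.1, other filters and scalings, no moderation, the replicate number as a block, leaving out mitochondrially encoded genes or each liver, and edgeR 4.0.16, DESeq2 1.42.0 and voom on the reads, where edgeR's quasi-likelihood test called 2 genes in all. *Mrpl33* was not analysed here. The insert of the test vector is not reported here. No libraries were duplicates. The labels do not state that each library came from a separate mouse, so p-values measure the spread between libraries, each called a liver here.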

Additional observations from a re-analysis of the deposited data

Results flagged for a closer look

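*Mrps21*, of the small subunit, was at 27.91 CPM in test-vector liver 2, apart from the other 4 test-vector livers at 23.93 to 24.69 CPM. The gap to the nearest liver was 0.809 of the whole range of the group, above Dixon's 95% critical value of 0.710. In AAV8-Control, *Mrps21* ran from 23.6 to 30.4 CPM, so this liver lay within the control range. It was 1 of 48 groups of values examined, and chance alone sets a value apart in about 1 in 20 groups. Test-vector liver 2 also had the highest median deviation of the test-vector livers over all 74 members, at 0.057.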

How the results depend on the processing

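No mitoribosomal gene had an adjusted p under 0.05 in any of the 21 alternatives, and none was higher at an unadjusted p under 0.05. The number lower at an unadjusted p under 0.05, 3 in the report, was 6 with DESeq2's size factors, TMM scaling, edgeR or DESeq2, 7 without moderation, 5 without mitochondrially encoded genes, 8 with voom, and 1 to 8 with each liver left out. The share of all tested genes lower at that level, 2.97% in the report, was 3.98%, 4.11%, 3.95% and 3.95% in the first 4 of these, then 3.02%, 3.53% and 5.06%, and 1.60% to 4.58% with each liver left out. The cause was not tested. Genes called over the whole table, 2 in the report, were 1 with at least 10 reads required or without moderation, 19 with DESeq2, and 1 to 4 with each liver left out. The sign turned for *Mrpl34* (0.00023 with voom, -0.042 to 0.030 with each liver left out) and *Mrps30* (-0.0044 with voom, -0.017 to 0.063), both within their standard errors of 0. The replicate number as a block gave 5 calls in all, none a member, and 3 members at the unadjusted level, *Mrps28*, *Mrpl16* and *Mrpl27*, without *Mrpl49*. Same-numbered livers correlated at 0.13, 0.21, 0.075, 0.31 and 0.20, and 4 of the 5 pairs correlated best with each other, a hint of pairing from the data. The labels do not say what the number marks and replicate 3 fell short of 0.1, so the fit without the block was kept. Members lower in mean numbered 59 to 68 over all alternatives. The precision of each value is limited by counting error, at 34 to 2608 reads per library, and by 5 livers per group.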
